A study of Drosophila melanogaster with 3 samples.

Results

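The microRNA genes of the Drosophila Hox complexes were examined in small RNA of adult male heads: mir-10 and mir-993 of the Antennapedia complex, mir-iab-4 and mir-iab-8 of the bithorax complex, and lncRNA:CR42651, the long noncoding RNA that contains mir-10. These 5 genes were taken by symbol from the 3546 noncoding genes of the authors' deposited table. Of the 5, 3 had reads and 2 were listed at 0. The flies labelled Sxl-RAC carried a UAS transgene for a version of Sex-lethal, an RNA-binding regulator of sex determination, driven by nSyb-GAL4, a driver active in all neurons, with tub-GAL80ts, a temperature-sensitive repressor of GAL4. The control flies expressed the red fluorescent protein mCherry from a UAS transgene at the attP2 site under nSyb-GAL4. The labels write the repressor in the Sxl-RAC cross only, so whether the control flies carried it is not stated. By the labels of the Sxl-RAC samples, flies were raised at 18 °C and kept at 29 °C for 4 days after eclosion. No control sample is listed with its rearing. RNA was taken from whole heads, so neurons were measured together with muscle, fat body, glia and eye tissue. There are 3 labelled Sxl-RAC samples, and the deposited comparison has no column per library. Its smallest values showed 6 libraries, 3 of each arm. Nothing in the labels says whether the 3 samples came from separate crosses, so the authors' p-values measure the spread between these libraries, which may be technical.

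Hox genes encode the homeodomain factors that give body segments their identity along the head to tail axis, and microRNA genes sit among them. A microRNA is cut from a hairpin in a longer primary transcript, and it represses mRNAs that pair with its seed, the bases near its 5′ end. The mir-10 gene has kept its place in Hox clusters from flies to vertebrates. In arthropods mir-993 is a relative of mir-10, and mir-100, which in flies lies outside the Hox complexes beside let-7, belongs to the same family. In Drosophila mir-iab-4 and mir-iab-8 are made from opposite strands of one hairpin locus and repress the Hox genes Ubx and abd-A.

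Small RNA from mir-10 and mir-993 was readily detected in heads, and neither changed beyond the authors' threshold when neurons expressed Sxl-RAC. According to the authors' deposited table mir-10 had a mean normalised count, the reads per library after scaling for depth, of 2805, and stood at 0.835 of its control level, while mir-993 had a mean normalised count of 597 and stood at 0.971. The transcript lncRNA:CR42651 had a mean normalised count of 2721, nearly that of the mir-10 hairpin inside it, and was not called either, a call being an adjusted p under 0.05. No reads were listed for mir-iab-4 or mir-iab-8.

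The mir-10 hairpin lies on chromosome 3R from 6809506 to 6809582, on the minus strand, within an exon of lncRNA:CR42651 (6808796 to 6816379, minus strand). That transcript runs through the interval between Dfd, whose near end is 6.37 kb away, and Scr, 6.74 kb away. The mir-993 hairpin (6776333 to 6776451, plus strand) lies 15.4 kb on the other side of Dfd, within an exon of lncRNA:CR42721 (6767050 to 6779728, plus strand), and 33.1 kb from mir-10. In the bithorax complex mir-iab-4 (plus strand) and mir-iab-8 (minus strand) have the same coordinates, 16856275 to 16856342, between abd-A and Abd-B. Coordinates are those of the BDGP6.54 annotation, since the authors' build is not given in the sources used here.

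The annotation also places the mature arms, the pieces of about equal size that remain when the hairpin is cut. They measure 22 and 23 bases in mir-10 and 23 and 23 bases in mir-993. The table gives no read lengths, so whether the counted reads are these arms was not measured. In the mir-iab hairpins, 19 bases of the mir-iab-4 5p arm overlap the mir-iab-8 3p arm, and 23 bases of the mir-iab-4 3p arm overlap the mir-iab-8 5p arm, each time on the opposite strand. The deposited table counts whole hairpin genes, so the arms of a gene were not measured apart.

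**Figure D1:**
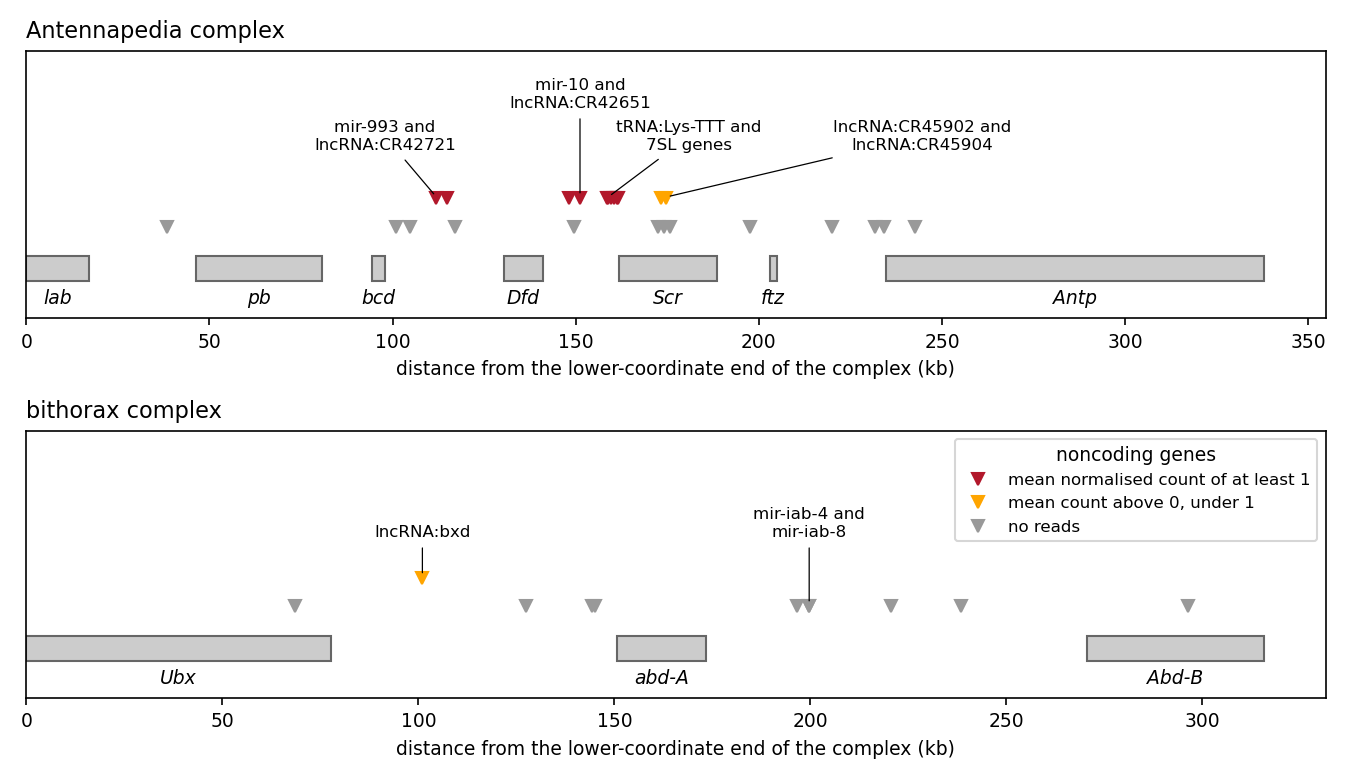
Noncoding genes of the deposited table in the Antennapedia complex (top) and the bithorax complex (bottom), drawn as triangles at the middle of each gene against the distance in kb from the end of the complex with the lower coordinate; grey boxes are Hox and other landmark protein-coding genes. Red triangles have a mean normalised count of at least 1, orange ones lie between 0 and 1, and grey ones, marked as without reads, are listed at 0. The listed reads lie around mir-993, mir-10 and the genes next to Scr, and the bithorax complex holds a single orange triangle. Zeros of overlapping genes, such as mir-iab-4 and mir-iab-8, could not be read as levels.

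Counts were set against the size of the libraries before levels were read. Read counts in the authors' table are divided by a size factor per library, and the adjusted p-values could be recomputed in each class of RNA by itself, so microRNAs and other noncoding RNAs had been run separately, each with its own size factors. In the microRNA run the recovered size factors were 0.776, 0.976 and 0.998 for the Sxl-RAC libraries, against 0.772, 0.936 and 1.83 for the control libraries. The arms overlapped in depth, and 1 control library was the deepest of all.

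For mir-10, the deposited mean and fold change correspond to 2553 normalised reads per Sxl-RAC library and 3057 per control library. Before normalisation that is about 1981, 2491 and 2547 fitted reads in the Sxl-RAC libraries, against 2360, 2861 and 5588 in the control libraries. These fitted reads differ within an arm only by library depth, because the table keeps no count per library. The authors' deposited table gave mir-10 a log2 fold change of -0.26 (SE 0.13, 95% interval -0.52 to -0.0045), an unadjusted p of 0.0461 and, from DESeq2, an adjusted p of 0.147. The gene therefore lay on the lower side in Sxl-RAC heads without passing the correction for the microRNAs tested. An unadjusted p under 0.05 was reached by 31.3% of the microRNAs that had an adjusted p.

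The corresponding levels of mir-993 were 588 normalised reads per Sxl-RAC library and 605 per control library. That is about 456, 574 and 586 fitted reads in the Sxl-RAC libraries, against 467, 567 and 1107 in the control libraries. The authors' deposited table gave it a log2 fold change of -0.04 (SE 0.13) and, from DESeq2, an adjusted p of 0.811. The 95% interval of -0.29 to 0.21 corresponds to 0.817-fold to 1.15-fold, against 0.700-fold to 0.997-fold for mir-10.

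**Figure D2:**
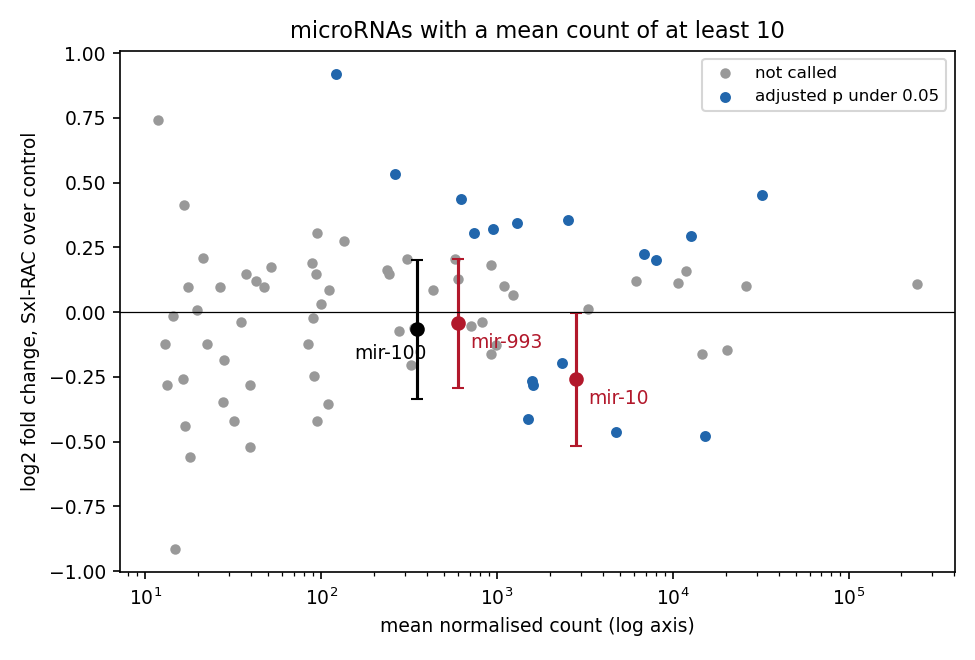
Change of Sxl-RAC over control as log2 fold change (vertical axis) against the mean normalised count on a log axis for microRNAs with a mean count of at least 10 in the authors' deposited table, on the scale of the microRNA run; blue points have an adjusted p under 0.05, and bars on mir-10, mir-993 and mir-100 are 95% intervals. The point of mir-10 lies at -0.26 and that of mir-993 at -0.04, both uncalled, and on the scale of the other noncoding RNAs mir-993 was at 0.19. One point, mir-986, lies below the plotted range.

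Calls were common among the other microRNAs. The authors' deposited table gives an adjusted p for 67 microRNAs, and 18 of these were called at a value under 0.05 (26.9%), 11 higher and 7 lower in Sxl-RAC heads, and neither of mir-10 and mir-993 was among them. At a background of that size, 0 of 2 called is no result about the Hox microRNAs, and 1 of the 2, mir-10, had an unadjusted p under 0.05. The median log2 fold change of the 67 was 0.08, against -0.26 for mir-10 and -0.04 for mir-993. In the other noncoding RNA run 4 of 531 genes were called (0.753%), and lncRNA:CR42651 was not among those.

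The count of lncRNA:CR42651 was nearly that of mir-10 alone. Its deposited mean was 0.970 of the mir-10 mean, and moving the mir-10 reads onto the size factors of the other noncoding RNA run predicts 2734 for the host, against 2721 listed. The deposited fold change then corresponds to 2684 normalised reads per Sxl-RAC library and 2758 per control library. In log2 terms the value of the host in the authors' deposited table was -0.04 (SE 0.15), and the adjusted p from DESeq2 was 0.971. Counts that close leave hardly any reads for the host outside the hairpin, so this row was taken as the mir-10 measurement on a second scale and not as another observation.

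The gap between mir-10 and its host matched the offset between the runs. The log2 fold change of lncRNA:CR42651 exceeded that of mir-10 by 0.22 in the authors' deposited table. In 22 other pairs of a microRNA and a longer noncoding gene with the same mean count to within 10%, the median excess was 0.23 (SD 0.02), and in the 14 whose microRNA had a mean count of 100 or more it ran from 0.22 to 0.24. The size factors recovered from the smallest values of the runs gave an offset of 0.23. Rows that count the same reads differ by about this offset by construction, so the match is no separate observation. Moved to the microRNA scale by that offset, lncRNA:CR42651 was at -0.27 (95% interval -0.57 to 0.03).

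The same holds for mir-993 and its host, which are among the 22 other pairs above. For lncRNA:CR42721 the authors' deposited table lists a mean normalised count of 584, 0.979 of that of mir-993, and a log2 fold change of 0.19 (SE 0.16, DESeq2 adjusted p 0.971). It exceeded mir-993 by 0.23, and on the microRNA scale it was at -0.04. The sign of mir-993 thus depends on the scale, being -0.04 on that of the microRNAs and 0.19 on that of the other noncoding RNAs. That of mir-10 did not turn, being -0.26 on the microRNA scale and -0.03 on that of the other noncoding RNAs, where it nearly reached 0.

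**Figure D3:**
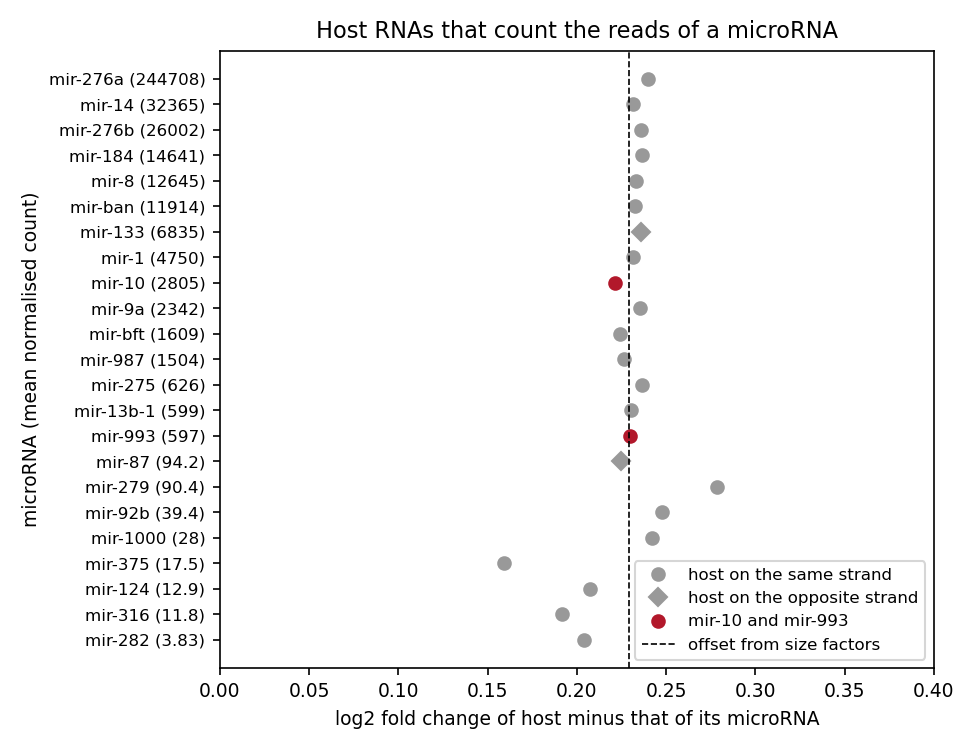
Log2 fold change of a host RNA minus that of the microRNA inside it (horizontal axis) for the 23 pairs with the same mean count to within 10%, ordered by the mean normalised count of the microRNA, given in brackets; diamonds are hosts on the opposite strand and the dashed line is the offset from the recovered size factors. The pair of mir-10 lies at 0.22 and that of mir-993 at 0.23, beside the dashed line at 0.23.

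**Figure D4:**
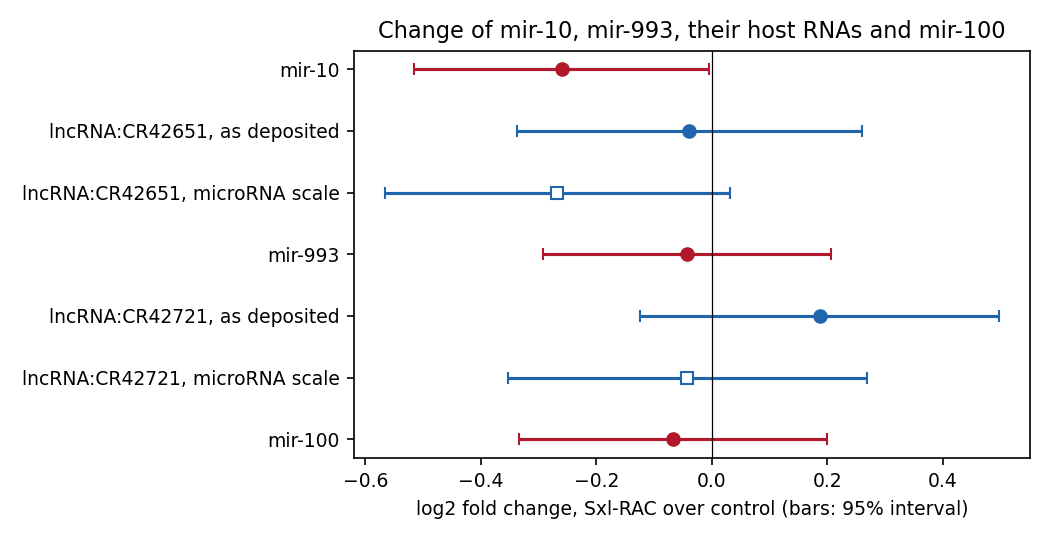
Log2 fold change of Sxl-RAC over control with its 95% interval for mir-10, mir-993, their host RNAs and mir-100 in the authors' deposited table; open squares show the hosts moved to the microRNA scale. As deposited, lncRNA:CR42721 lies at 0.19 and mir-993 at -0.04, and the square of lncRNA:CR42721 lies at -0.04.

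The calls of the run as a whole moved with the scale as well. On the scale of the other noncoding RNAs 30 of the 67 microRNAs passed with the Wald p recomputed, 27 higher and 3 lower. Of the calls 90.0% were then higher, against 61.1% as deposited. Neither mir-10 nor mir-993 was called on it.

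For its level, mir-10 had a large error. Its deposited standard error of 0.13 was larger than that of all 14 microRNAs with more reads, and the largest among the 23 whose mean count reached 1000. The 7 other microRNAs with a mean count within 2-fold of mir-10 had standard errors of 0.08 to 0.11, and 6 of those 7 were called. The authors' standard error was solved for the spread between libraries that their fit assigned to the gene, beyond counting error. This gave a coefficient of variation of 10.9% for mir-10, against 6.32% to 9.02% for those 7. It is 1 value for both arms, and DESeq2 can draw it toward that of other genes. It is therefore not a direct measure of the spread of these libraries. Counting error alone is near 1.89% at that mean count, well below the fitted 10.9%. Which library or libraries spread cannot be read from the table.

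Genes of like level were set beside mir-10. The 3 microRNAs nearest to mir-10 in mean normalised count were mir-278, mir-252 and mir-9a. Of these mir-278 was higher in Sxl-RAC heads, where the authors' deposited table gives a log2 fold change of 0.35 (SE 0.09, DESeq2 adjusted p 0.000601), and mir-252 was at 0.01 (SE 0.08, adjusted p 0.916). A smaller change than that of mir-10 was called for mir-9a, at -0.20 (SE 0.08, DESeq2 adjusted p 0.0490). Named after its values were seen, mir-284 had a log2 fold change of -0.27, close to that of mir-10, and was called (SE 0.08, DESeq2 adjusted p 0.00736). On the scale of the other noncoding RNAs mir-9a turned to 0.03, and mir-284 was at -0.04. At the p-value of the last microRNA called, mir-10 would have needed a log2 change of 0.32 and mir-993 one of 0.32 to pass.

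**Figure D5:**
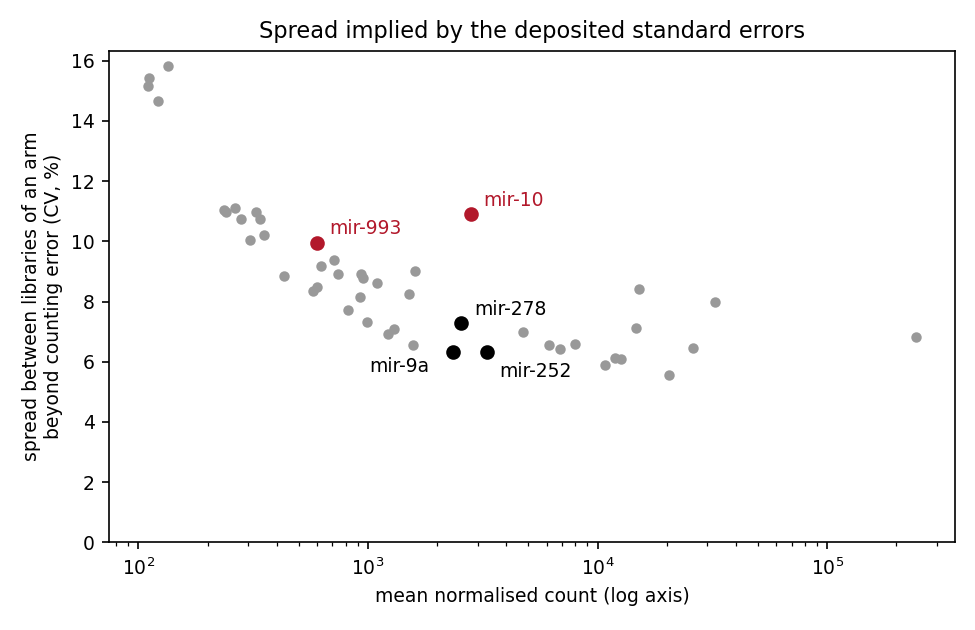
Spread between libraries of an arm beyond counting error, as a coefficient of variation in percent solved from the authors' standard errors (vertical axis, from 0), against the mean normalised count on a log axis, for microRNAs whose mean count reached 100. The point of mir-10, at 10.9%, lies above mir-278, mir-252 and mir-9a, and mir-993 is at 9.96%.

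The standard error of mir-993, also 0.13, was exceeded by that of 1 of the 32 microRNAs with more reads, mir-10. It ranked 5 from the largest when set among the 16 other microRNAs within 2-fold of its level, whose errors ran from 0.09 to 0.15. Its coefficient of variation of 9.96% was above their median of 8.89%, in a range of 7.33% to 10.98%. The nearest in level were mir-13b-1, mir-13b-2 and mir-275. Here mir-275 was higher in Sxl-RAC heads, where the authors' deposited table gives a log2 fold change of 0.44 (SE 0.12, DESeq2 adjusted p 0.00144), while mir-13b-1 was at 0.13 (SE 0.11) and mir-13b-2 at 0.21 (SE 0.11), neither called.

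The relatives mir-10, mir-993 and mir-100 were listed at different levels. By mean count mir-10 ranked 15 and mir-993 ranked 33 among the microRNAs, holding 0.627% and 0.133% of the microRNA counts, and mir-10 had 4.70 times the mean count of mir-993. The third relative, mir-100, had a mean normalised count of 351 and was at -0.07 on the log2 scale by the authors' deposited table (SE 0.14, DESeq2 adjusted p 0.785). The log2 fold change of mir-10 lay 0.22 below that of mir-993, with wide overlap of their intervals. The difference was not tested, because both were measured in the same libraries and their covariance is not in the table. On the scale of the other noncoding RNAs mir-100 was at 0.16.

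The absence of reads for mir-iab-4 and mir-iab-8 could not be read as a level. Of 262 microRNA genes, 4 overlap another microRNA gene: this pair and mir-307a with mir-307b, which also lie on opposite strands. All 4 were listed at 0, while of the 258 that overlap none 90 were at 0 (34.9%). The other noncoding RNA run showed the same where a microRNA lies inside the spans of 2 of its genes. For mir-315, with a mean normalised count of 432, both lncRNA:CR45388 and asRNA:CR45912 were listed at 0, and for mir-252, with 3299, asRNA:CR17025 had 0.932 and asRNA:CR46354 was at 0. Where a single gene spans the microRNA, 32 of 32 with a mean count of at least 10 had a host with at least 0.937 of the microRNA count. Hosts on the opposite strand were among these, as for mir-133, which lay in an intron of lncRNA:CR44909. The mir-iab hairpin lies inside the spans of lncRNA:iab4 and lncRNA:iab8, both at 0.

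A row of the microRNA run at 0 would otherwise allow few reads. A count of 0 allows up to 3 reads, which in the shallowest library would make a mean normalised count of 0.648, counting error only. Because mir-iab-4 and mir-iab-8 have the same coordinates, that limit would hold for them only if counting kept the strands apart. Hosts on the opposite strand, as for mir-133, held the microRNA count in the other noncoding RNA run. No limit was therefore set for mir-iab-4 and mir-iab-8, and reads that fell on both genes were not analysed here.

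Among the 9 other noncoding RNA genes of the bithorax complex, which include lncRNA:iab4 and lncRNA:iab8, 1 had reads, against 531 of all 2555 genes of that run (20.8%). Both lncRNA:iab4 and lncRNA:CR43617 lie inside the span of lncRNA:iab8. As for the mir-iab genes, zeros of overlapping genes could not be read as levels. The gene with reads was lncRNA:bxd, transcribed upstream of Ubx, whose deposited mean of 0.1995 corresponds to 1 read in a control library and none in an Sxl-RAC library. The 25 noncoding genes of the Antennapedia complex were 2 microRNA, 4 tRNA and 19 other noncoding RNA genes. Of those 19, 13 were listed at 0. These include lncRNA:CR43435, inside the span of lncRNA:CR42721, and lncRNA:CR45915, inside that of lncRNA:CR42651. Over all 25 genes 12 had reads, against 1379 of the 3546 genes of all classes. Of the 12 with reads, 10 had a mean normalised count of at least 1. Among the remaining ones, lncRNA:CR45902 had 1 read and lncRNA:CR45904 had 2, all in Sxl-RAC libraries and none in control libraries, too few for any comparison.

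The 10 were mir-10, mir-993, their host RNAs, and a cluster of 4 lysine tRNA genes and 2 genes of the signal recognition particle RNA 7SL between lncRNA:CR42651 and Scr. On the log2 scale the authors' deposited table puts the change at 0.41 for tRNA:Lys-TTT-2-1, 0.49 for tRNA:Lys-TTT-2-2, 0.43 for tRNA:Lys-TTT-2-3 and 0.46 for tRNA:Lys-TTT-2-4, on the scale of the tRNA run, where 15.4% of genes with an adjusted p were called higher. All of these but tRNA:Lys-TTT-2-3 were called by DESeq2's Wald test (adjusted p 0.0334, 0.00494 and 0.00696, against 0.0545 for that gene). On the scale of the other noncoding RNA run the value was -0.42 for 7SLRNA:CR42652 and -0.45 for 7SLRNA:CR32864. DESeq2's Wald test gave them unadjusted p-values of 0.0353 and 0.0279, and each had an adjusted p of 0.971. By their names the 4 tRNA genes are copies of 1 tRNA, and both 7SL genes encode the same RNA. How reads that match several copies were placed is not stated, so the values within each set may not be separate observations. The tRNA genes stand on a scale of their own, so their values cannot be set against that of mir-10 a few kb away.

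Whole heads do not show which cells the reads came from. In bulk RNA a smaller number of cells of a type and less RNA per cell cannot be told apart. Of tissue markers among the microRNAs, mir-124 of neurons had a mean normalised count of 12.9 and mir-1 of muscle 4750 in the authors' deposited table. With Sxl-RAC, mir-1 was lower, at a log2 fold change of -0.46 (SE 0.08, DESeq2 adjusted p 1.41e-06), and mir-124 was at -0.12 (SE 0.59, no adjusted p). In the opposite direction mir-133, known from vertebrate muscle beside mir-1 and named here after its values were seen, was higher, at 0.23 (mean normalised count 6835, SE 0.08, DESeq2 adjusted p 0.0173). Moved to the scale of the other noncoding RNAs, mir-1 was at -0.23, mir-124 at 0.10 and mir-133 at 0.45. The part of tissue content in the value of mir-10 was not tested.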

How the data were processed

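Per the submitters' processing notes, Trim Galore 0.6.7, Bowtie2 2.5.3, featureCounts 2.0.8 and DESeq2 2.11.40.8 were used. Genome build, annotation and strand setting are not given in the sources used here. Per the file headers, the deposited table gives a mean signal over all libraries (read counts divided by size factors, called the mean normalised count), the log2 fold change with its standard error in log2 units, the Wald statistic as a score (log2 fold change over its error), and the p-value with its adjusted p-value, all computed by the authors. The direction, Sxl-RAC over attP2 control, comes from the table's name.

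Identifiers were matched to Ensembl release 115 of BDGP6.54 (3545 of 3546 rows). Adjustment within a class gave the authors' adjusted p to 1% for all genes having one. All 35 distinct mean counts under 0.95 in the microRNA run, and 105 in the other noncoding RNA run, could be written as sums of at most 11 whole reads of 6 libraries (tolerance 2e-08), against at most 28 and 79 with 1 library left out. The sign of the fold change of genes with 1 read gave the arm. Levels per arm assume equal arms. The spread was solved from the negative binomial error formula with 1 dispersion for both arms. It is the dispersion of the authors' fit, which DESeq2 can draw toward that of other genes. Scripts (Python 3.11.15, scipy 1.17.1) were tested on simulated data. A gene is called at an adjusted p under 0.05. Named genes are the members, rows of the Hox complexes with a mean count of at least 1, mir-100, and the 3 microRNAs nearest in mean count to mir-10 and to mir-993. The members and lists were chosen with earlier results of these data known. No sequences were used here, so microRNAs sharing a seed were not listed.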

Additional observations from a re-analysis of the deposited data

How the results depend on the processing

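Neither mir-10, mir-993 nor lncRNA:CR42651 passed under any alternative run. With 1 adjustment over all genes the adjusted p of mir-10 was 0.629, over genes whose mean count reached 10 it was 0.241, and after centring on the median of microRNAs with such a count it was 0.0974 at a log2 fold change of -0.28. On the scale of the other noncoding RNA run, an alternative chosen after seeing the data, mir-993 turned to 0.19 (adjusted p 0.252), against -0.04 as deposited, and the number of called microRNAs was 30, against 18 as deposited. The scale itself is the cause of that turn, since a constant was added. The number of called microRNAs was 20 at a threshold of 0.1 and 15 when adjusted over the microRNAs whose mean count reached 10. The excess of lncRNA:CR42651 over mir-10, less the median of other pairs, was -0.01 whether pairs to 10%, pairs to 20% or size factors were used. No paired analysis was possible because the table has no column per library. For the same reason no library could be left out. The mir-iab genes have no value to recompute. The scale of the tRNA run was not recovered here. Counting error, which depth sets, is the smaller part of the error of mir-10, and the zeros of mir-iab-4 and mir-iab-8 could not be read as levels.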
